A study of Mus musculus with 2 samples.

Results

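Described here are 10 of the 21938 protein-coding genes of the GENCODE M21 annotation: Nrf1, Nfya, Nfyb, Nfyc, Rfx1, Rfx3, Rfx7, Creb1, Gabpa and Sp1. They encode transcription factors, and they were chosen by the DNase footprints of the same libraries, in which the DNA letters these factors recognise were common. All 10 symbols were found in the annotation. For each gene the peaks and footprints within 500 bp of every annotated transcription start site were collected, its promoter signal was ranked among all protein-coding promoters, and distal peaks within 50 kb were counted. The choice of members used the footprints of these libraries, so all values are given as a description, with no test.

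DNase-seq had been run on left cerebral cortex from B6CASTF1/J mice, females at an age of 10 days. B6CASTF1/J animals are first-generation hybrids of the C57BL/6J and CAST/EiJ strains, so each cell carries a genome copy of both parents, while the coordinates and letters below are those of the C57BL/6J reference. There was 1 group, of 2 libraries labelled as biological replicates 1 and 2, with no treatment or other genotype to compare. The labels number the animals separately but give a shared donor identifier of the strain. Spreads are standard deviations over n = 2 libraries and join animal and technical variation. DNase I cuts accessible DNA, a peak marks a cluster of cuts, and a footprint marks a short stretch inside accessible DNA where cuts are depleted.

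NRF1 (nuclear respiratory factor 1) binds GC-rich palindromic sites at the promoters of mitochondrial and housekeeping genes. NF-Y is a trimer of NFYA, NFYB and NFYC that binds the CCAAT box, and RFX proteins bind X-box sites, with RFX3 known for its role in ciliated cells. CREB1 binds the cAMP response element and acts in neuronal activity-dependent transcription, GABPA is the DNA-binding ETS subunit of GABP, and SP1 is a zinc-finger protein that binds GC boxes.

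Promoter sequences are printed first for the members of strongest promoter signal (Rfx1, Sp1, Nfya) and for a pair of weaker ones that differ in how much of the sequence lay in footprints (Gabpa, Rfx7). They are RefSeq promoters of GRCm38.p6, each 250 bases before to 50 after a start, written 5′ to 3′ along the gene. Capitals mark bases that lay in footprints of both libraries.
Rfx1 promoter, chr8:84066586-84066885, plus strand: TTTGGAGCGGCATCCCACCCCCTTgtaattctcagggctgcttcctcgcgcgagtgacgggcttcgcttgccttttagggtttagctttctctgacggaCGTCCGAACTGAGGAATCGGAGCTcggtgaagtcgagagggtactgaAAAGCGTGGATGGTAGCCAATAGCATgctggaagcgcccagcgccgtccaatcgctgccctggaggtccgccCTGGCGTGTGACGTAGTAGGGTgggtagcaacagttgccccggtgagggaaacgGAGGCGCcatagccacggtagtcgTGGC
Sp1 promoter, chr15:102406066-102406365, plus strand: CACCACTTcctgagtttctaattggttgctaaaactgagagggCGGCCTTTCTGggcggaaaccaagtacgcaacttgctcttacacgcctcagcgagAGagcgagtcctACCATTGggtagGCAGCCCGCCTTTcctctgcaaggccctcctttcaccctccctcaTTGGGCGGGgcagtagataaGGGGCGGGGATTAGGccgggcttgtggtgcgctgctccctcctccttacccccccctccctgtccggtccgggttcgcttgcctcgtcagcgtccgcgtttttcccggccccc
Nfya promoter, chr17:48409771-48410070, minus strand: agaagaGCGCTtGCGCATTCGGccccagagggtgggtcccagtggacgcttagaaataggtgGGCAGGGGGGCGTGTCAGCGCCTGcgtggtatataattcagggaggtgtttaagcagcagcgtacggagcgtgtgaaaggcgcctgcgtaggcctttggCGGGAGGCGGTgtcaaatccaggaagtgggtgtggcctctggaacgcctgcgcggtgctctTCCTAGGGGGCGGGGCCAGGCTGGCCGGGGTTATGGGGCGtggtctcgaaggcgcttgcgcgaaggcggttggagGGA
Gabpa promoter, chr16:84834874-84835173, plus strand: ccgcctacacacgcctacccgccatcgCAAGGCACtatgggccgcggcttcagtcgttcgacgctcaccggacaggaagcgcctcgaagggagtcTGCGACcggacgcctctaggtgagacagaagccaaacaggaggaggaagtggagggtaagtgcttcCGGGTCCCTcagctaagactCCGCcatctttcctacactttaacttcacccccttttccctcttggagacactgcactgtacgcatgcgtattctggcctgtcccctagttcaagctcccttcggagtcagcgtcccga
Rfx7 promoter, chr9:72531990-72532289, plus strand: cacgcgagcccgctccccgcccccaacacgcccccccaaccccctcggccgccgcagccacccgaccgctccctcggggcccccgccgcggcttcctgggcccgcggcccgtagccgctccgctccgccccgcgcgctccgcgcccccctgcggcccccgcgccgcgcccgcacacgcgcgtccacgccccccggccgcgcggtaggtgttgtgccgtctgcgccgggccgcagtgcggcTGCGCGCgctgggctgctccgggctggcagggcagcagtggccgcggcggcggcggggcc
Of these 300 bases, 107 were in footprints of both libraries in Rfx1, 65 in Sp1, 93 in Nfya, 27 in Gabpa and 7 in Rfx7. The longest run of such bases was 40 in Nfya, 26 in Rfx1, 15 in Sp1, 9 in Gabpa and 7 in Rfx7. Other RefSeq promoters of Nfya, not printed, had 103 and 0 such bases. The printed stretches covered the strongest peaks unequally, so these counts are not of like parts. In each library they held 295 bp of that peak at Rfx1, 300 at Nfya, 247 at Gabpa and 0 at Rfx7. At Sp1 they held 155 bp in replicate 1 and 195 in replicate 2. The GC content of the printed Rfx7 promoter was 84.7%, against 59.3% to 64.3% in the other 4.

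All 10 members had a promoter peak in both libraries, where 55.2% of protein-coding genes (12105 of 21938) did. These 12105 are called open coding promoters below. A promoter counted when each library had a peak of its smaller peak list within 500 bp of any start site of the gene, and its signal was the highest signal among such peaks. The signal is the authors' value per peak, on a scale that the sources used here do not give. The mean signal of the members had a median of 5.57, against 2.89 over open coding promoters, and 8 of 10 members were above the median of open coding promoters in each library. Cortex is a mixture of cell types, and in such a bulk sample a promoter open in fewer cells and one less open in every cell cannot be told apart.

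**Figure D1:**
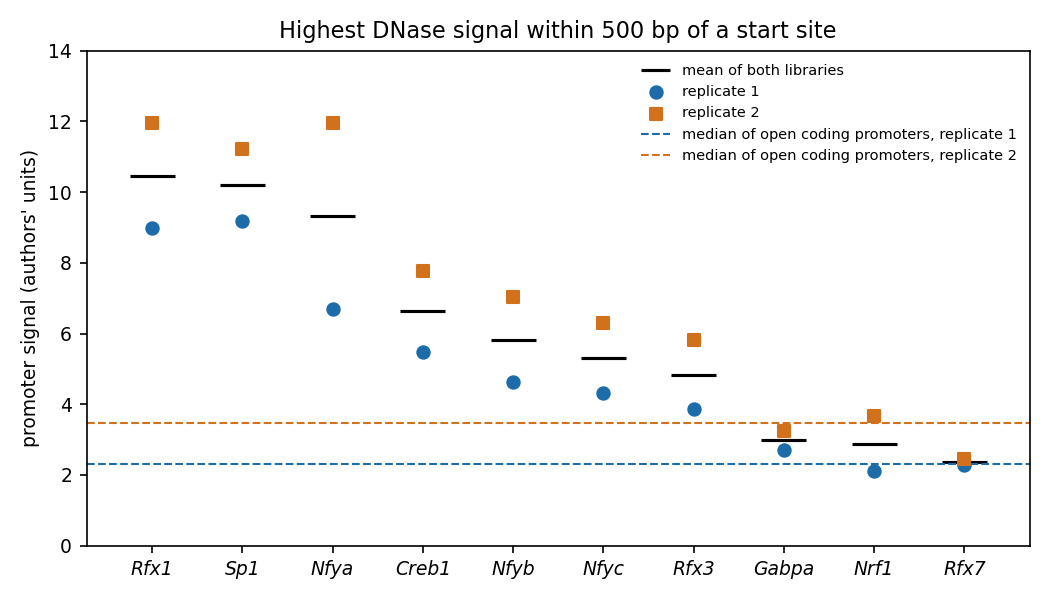
Promoter signal of each member in replicate 1 (circles) and replicate 2 (squares), with the mean of both as a bar; dashed lines are the medians over open coding promoters, 2.30 in replicate 1 and 3.46 in replicate 2. Rfx1, Sp1 and Nfya lie highest, and Gabpa, Nrf1 and Rfx7 lie near the dashed lines.

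Gene coordinates below are of GRCm38 (mm10). The NF-Y subunit genes ranged from the top of this order to its middle. Nfya (chr17:48386885-48409906), which encodes the sequence-recognising subunit, had a promoter signal of 6.69 in replicate 1 and 12.0 in replicate 2, at percentiles 98.3 and 99.4 of all coding promoters. Nfyb (chr10:82748701-82764144), for a histone-fold subunit, had 4.63 and 7.03, at percentiles 91.9 and 91.8. Nfyc (chr4:120757438-120831572), for the other histone-fold subunit, had 4.32 and 6.29, at percentiles 90.3 and 89.1. Nfya was thus higher than its partner genes in both libraries, by signal and by percentile. Its 6.69 in replicate 1 lay below the 7.03 of Nfyb in replicate 2, but signals were not rescaled between libraries.

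The RFX genes were the most spread of the families. Rfx1 (chr8:84066834-84096992) had 8.98 in replicate 1 and 11.9 in replicate 2, which placed it 33rd and 137th among coding promoters. Rfx3 (chr19:27761721-28011166) had 3.85 and 5.83, at percentiles 87.0 and 87.2. Rfx7 (chr9:72532240-72622937) had 2.28 and 2.44, at percentiles 72.1 and 64.0, and its mean of 2.36 ± 0.116 was the lowest of the 10. The RFX members therefore held both the highest and the lowest mean signal of the set, and their ranges did not overlap.

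Sp1 (chr15:102406143-102436404) stood beside Rfx1, with 9.19 in replicate 1 and 11.2 in replicate 2, at rank 28 and 219. Creb1 (chr1:64532645-64604548) had 5.47 and 7.78, at percentiles 95.4 and 94.2. Gabpa (chr16:84834925-84863779) had 2.71 and 3.24, at percentiles 77.1 and 70.8. Nrf1 (chr6:30047988-30153458) had 2.11 and 3.67, at percentiles 70.1 and 74.0. Gabpa was above the median of open coding promoters only in replicate 1, Nrf1 only in replicate 2, and Rfx7 in neither library.

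In order of mean signal the genes were Rfx1 (10.5 ± 2.10), Sp1 (10.2 ± 1.45), Nfya (9.32 ± 3.72), Creb1 (6.62 ± 1.63), Nfyb (5.83 ± 1.70), Nfyc (5.30 ± 1.40), Rfx3 (4.84 ± 1.40), Gabpa (2.98 ± 0.376), Nrf1 (2.89 ± 1.10) and Rfx7. The raw values of neighbours in this order overlapped between libraries, except for Rfx3 and Gabpa, which were apart in both. Signals were not rescaled between libraries, so this overlap also holds the general difference between them. By percentile within each library, the ranges of Nfya, Creb1, Nfyb, Nfyc and Rfx3 were apart from each other. Those of Rfx1, Sp1 and Nfya overlapped, as did those of Gabpa, Nrf1 and Rfx7. Of the 45 pairs of members, 40 had the same order in both libraries. Each of the 10 was higher in replicate 2, as were 97.3% of open coding promoters. The log2 ratio of replicate 2 to replicate 1 had a median of 0.53 in the members and 0.56 in open coding promoters. It was lowest in Rfx7 (0.10) and highest in Nfya (0.84). The Rfx7 value is that of a peak centred upstream of its start. The peak at the Rfx7 start itself, with 0.927 and 2.05, differed more between libraries. Signals came in whole steps, of 0.00692 (replicate 1) and 0.00758 (replicate 2). If a step is 1 cut, counting error of the member promoters was between 2.52% and 5.73%.

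The cut-rate lists give the false discovery rate (FDR) of positions where it is under 0.05. The lowest FDR at the Nfya promoter was 3.68e-96 in replicate 1 and 7.68e-168 in replicate 2. At Nrf1 it was 3.49e-22 and 9.80e-50, and at Rfx7 3.23e-26 and 1.85e-26. Rfx1 was the member listed throughout, with all 1003 bp of its window in the lists of both libraries. Over the windows of the other 9 the listed share lay between 15.1%, at Nrf1 in replicate 1, and 54.7%, at Sp1 in replicate 1. Those windows were longer, up to 7030 bp at Nfyc, and each took in start sites without a peak, 6 of them at Nrf1. Rfx1 had no such site, so these shares also follow the annotated start sites.

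Most of these genes have several annotated start sites, and the open ones were clustered. The 10 members had 82 start sites, of which 52 (63.4%) had a peak in both libraries and 30 in neither. Over all start sites of protein-coding genes 43.5% had a peak in both, and 59.8% over those of open coding promoters. No member start site was open in only 1 library.

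**Figure D2:**
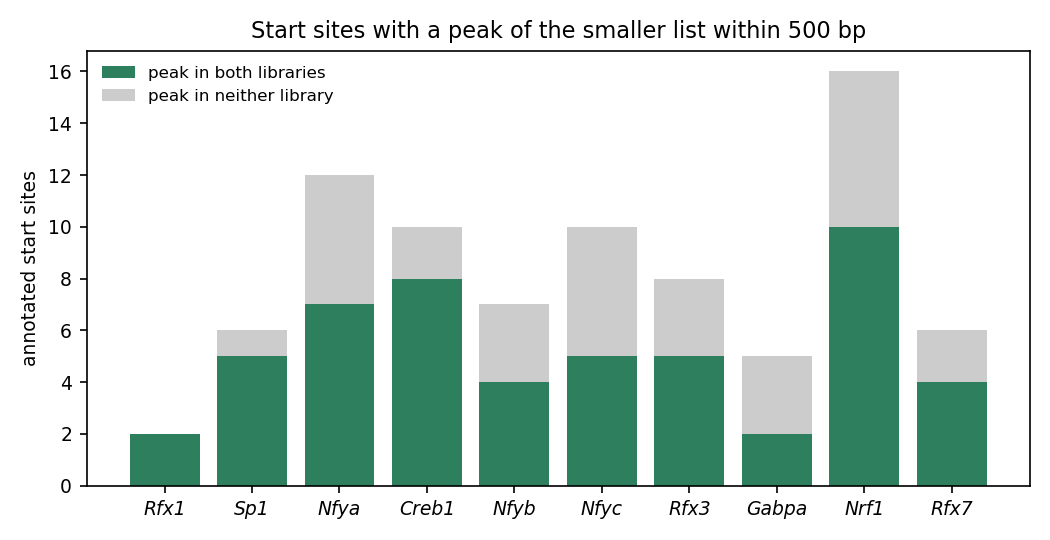
Number of annotated start sites of each member, split into those with a peak of the smaller list within 500 bp in both libraries (dark) and those with a peak in neither (pale). Both of the 2 sites of Rfx1 were open, and 10 of the 16 of Nrf1.

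Nrf1 had 10 open sites within 0.163 kb of each other, while its other 6 sites, between 28.3 and 68.1 kb downstream, had no peak. Nfya had 7 of 12 sites open in 2 regions. The first was at the start of the gene model, and the second, 16.7 kb downstream, had a far weaker peak, with signals of 0.996 and 1.14. At Nfyc the outermost start of the gene model had no peak in either library, and the CpG observed over expected around it was 0.204, against a median of 0.856 over the members and 0.729 over open coding genes. The open Nfyc sites lay 5.87 to 5.89 kb downstream, with the signals given above, and 15.9 kb downstream, with 2.55 and 3.43. Counted at the start of the gene model alone, 9 of 10 members had a peak, with Nfyc as the exception, where 49.5% of all coding genes did.

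The strongest peak overlapped a start site of the gene itself in both libraries at 8 of 10 members. At Rfx3 the peak midpoint was at -414.5 bp from the nearest start site in both libraries, where a negative distance is upstream. At Rfx7 it was at -619.5 bp in replicate 1 and at -579.5 bp in replicate 2, and the peak at the Rfx7 start itself had signals of 0.927 and 2.05. That upstream peak lay near the start of 4930509E16Rik, a lincRNA on the opposite strand 382 bp from the Rfx7 start.

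At Nfya and Gabpa the strongest peak also held starts of a coding gene on the opposite strand, so its signal cannot be assigned to a direction. The nearest start of Oard1, which encodes an O-acyl-ADP-ribose deacylase, lay 108 bp from that of Nfya. A start of Atp5j, which encodes a subunit of the mitochondrial ATP synthase, lay 31 bp from a start of Gabpa. This pair lay just outside the strongest Gabpa peak, which held 2 other Atp5j starts. The start of the antisense transcript C330011M18Rik lay 451 bp from a start of Rfx1, outside the strongest Rfx1 peak and within a separate peak with signals of 2.86 and 4.02.

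The member promoters held more footprints than the typical open promoter. There were 98 within 500 bp of their start sites in replicate 1 and 106 in replicate 2, with a median per gene of 11.5 and 9.5, against 5 in each library over open coding promoters. Members also had more start sites, with a median of 7.5 against 3 over all coding genes, open or not, so their windows were longer than those of coding genes at large. The median over open coding promoters alone was not taken. Of the footprints at members, 70 in replicate 1 overlapped one in replicate 2 (71.4%), and 71 in replicate 2 overlapped one in replicate 1 (67.0%). Over open coding promoters these shares were 59.2% and 58.8%.

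**Figure D3:**
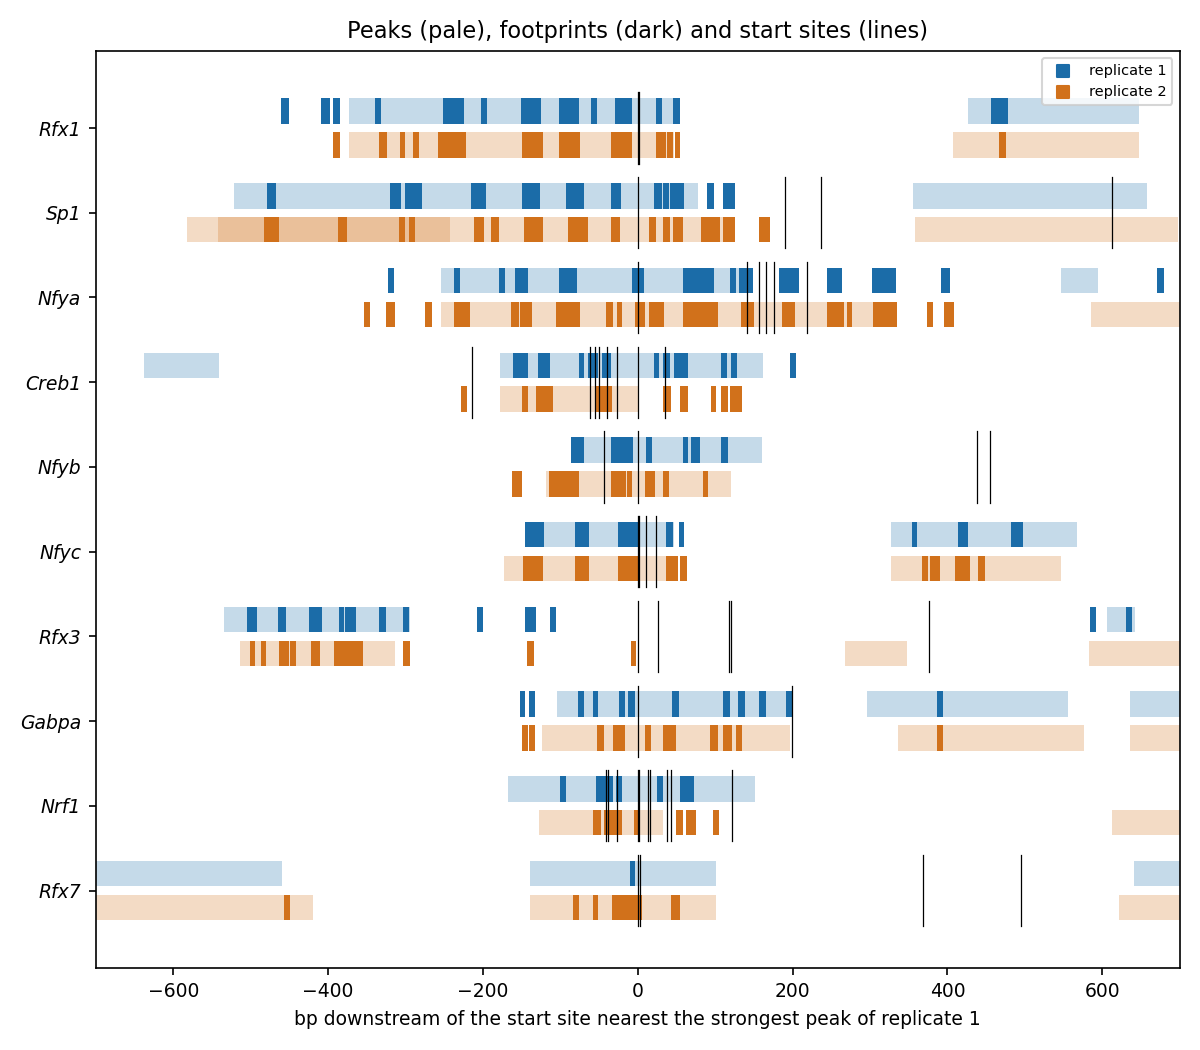
Peaks (pale bars) and footprints (dark bars) of replicate 1 (upper row) and replicate 2 (lower row) at each member, by distance in bp from the start site nearest its strongest peak in replicate 1; vertical lines are annotated start sites. Nfya and Sp1 hold dense rows of footprints in the same places in both libraries, and Rfx7 holds 1 in replicate 1.

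Nfya had the most footprints, 16 in replicate 1 and 21 in replicate 2. The widest of them, 40 and 46 bp, held a GC box and is the long run of capitals in the Nfya sequence printed above. At Sp1 all 12 footprints of replicate 1 overlapped one of the 15 in replicate 2. Gabpa had 12 and 10 footprints beside its low signal, and their widths had a median of 8 bp in both. Rfx7 had 1 and 5, and its strongest peak lay mostly outside the window in which footprints were counted.

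The letters searched, on both strands, were GCGCANGCG for NRF1, CCAAT for NFY, GTTGCC for RFX, TGACG for CREB, CCGGAA for ETS factors such as GABPA, and GGGCGG for SP factors. A footprint extended by 5 bp at each side had to hold the whole run of letters. A match is a description of the sequence and not a site of binding. The members were chosen by how common such letters were in footprints of these libraries, so the following shares only describe that choice. Beside all footprints stand windows moved by 60 bp, kept only if they overlapped no footprint and lay wholly inside a peak of the smaller list. This left 49277 moved windows for 212785 footprints in replicate 1 and 61245 for 224029 in replicate 2. The footprints had no such limit, so the sets compared were unlike. NRF1 letters were in 1.01% of footprints in replicate 1 and 0.839% in replicate 2, against 0.154% and 0.220% of moved windows. SP letters were in 6.04% and 6.83%, against 2.21% and 1.95%, and RFX letters in 1.70% and 1.67%, against 0.901% and 0.849%. CREB letters were in 2.13% and 1.96%, against 1.48% and 1.44%. NFY letters, in 3.48% and 3.25% against 3.21% and 2.81%, and ETS letters, in 1.20% and 1.13% against 0.982% and 0.813%, were nearer to the moved windows.

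At 6 of 10 members a promoter footprint of either library held the letters of the member's own family: Nfya, Nfyb, Nfyc, Creb1, Gabpa and Sp1. Over open coding promoters, NFY letters were in a footprint of either library at 24.8%, CREB letters at 25.4%, ETS letters at 20.8% and SP letters at 63.7%. In both libraries the own letters were present at 5 members, without Nfyc, where these shares were 14.3% for NFY, 15.3% for CREB, 11.4% for ETS and 49.9% for SP letters. The count of 6 fell to 3 with footprints not extended and to 2 with longer, stricter letters. Nfya had 2 such footprints in each library, Sp1 had 4 in each, and Creb1 and Gabpa had 1 in each. Nfyb had 2 in replicate 1 and 1 in replicate 2, at different places, and Nfyc had 0 in replicate 1 and 3 in replicate 2. Nrf1, Rfx1, Rfx3 and Rfx7 had none, where 16.3% of open coding promoters held NRF1 letters and 9.12% RFX letters in either library, and 11.5% and 4.89% in both. Members held more footprints than the typical open coding promoter, so these shares per promoter are not like for like.

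Footprints with the letters are printed with 10 bases at each side, along the gene and with the matched letters, on whichever strand, in capitals. The first 7 are of members that held their own letters, and the last 2 are letters of another family. They are C57BL/6J reference letters.
Nfya footprint with NFY letters, replicate 1, chr17:48409564-48409613, minus strand: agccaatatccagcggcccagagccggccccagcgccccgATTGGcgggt
Nfya footprint with NFY letters, replicate 1, chr17:48409633-48409672, minus strand: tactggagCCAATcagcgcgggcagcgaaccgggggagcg
Nfyb footprint with NFY letters, replicate 1, chr10:82763976-82764003, minus strand: gtttgtgtctcgcttcggCCAATgatcg
Nfyc footprint with NFY letters, replicate 2, chr4:120815775-120815823, minus strand: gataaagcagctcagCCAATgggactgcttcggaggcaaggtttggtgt
Creb1 footprint with CREB letters, replicate 1, chr1:64532896-64532933, plus strand: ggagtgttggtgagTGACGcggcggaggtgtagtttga
Gabpa footprint with ETS letters, replicate 1, chr16:84835025-84835053, plus strand: taagtgcTTCCGGgtccctcagctaagac
Sp1 footprint with SP letters, replicate 1, chr15:102406243-102406277, plus strand: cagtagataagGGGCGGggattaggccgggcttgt
Nfya footprint with NRF1 letters, replicate 1, chr17:48410039-48410074, minus strand: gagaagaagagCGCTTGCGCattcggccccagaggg
Rfx1 footprint with CREB letters, replicate 1, chr8:84066363-84066392, plus strand: cctccgccgcTGACGTCAcagaagggcagc
In the first Nfya line and the Nfyb line the capitals lie in the bases beside the footprint and not in the footprint itself. In the second Nfya line and the Gabpa line they lie partly in the footprint and partly beside it. The Creb1 footprint held TGACG without the full palindrome TGACGTCA, which the Rfx1 footprint in the last line did hold. That Rfx1 footprint overlapped none of replicate 2.

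**Figure D4:**
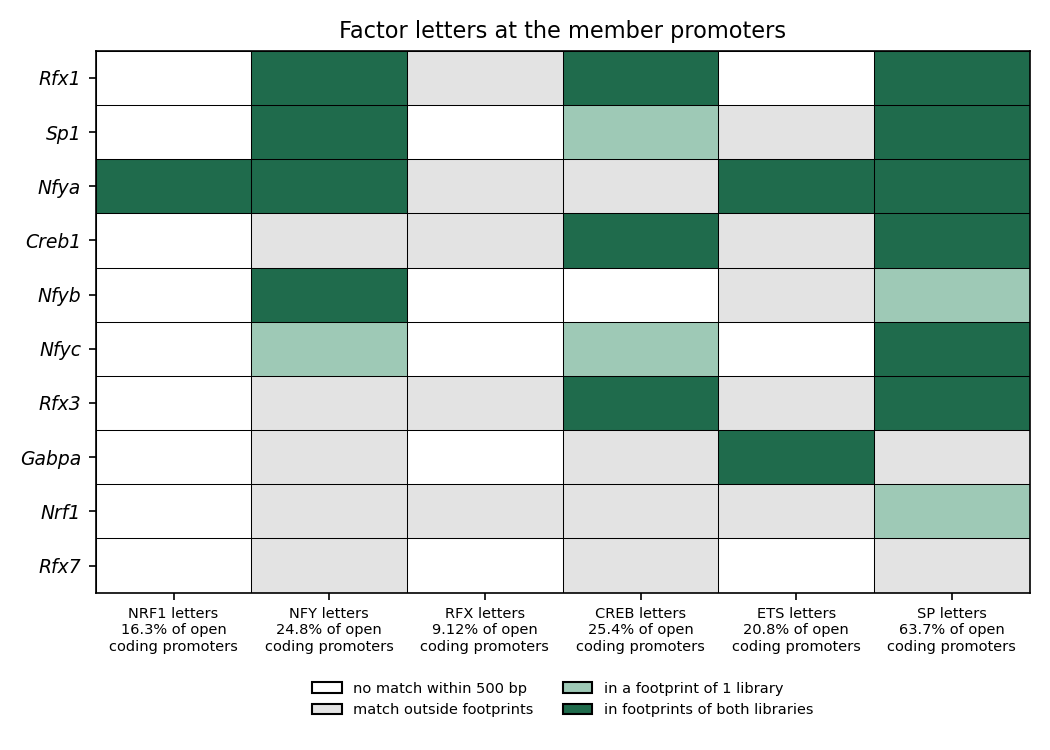
Letters of each factor family at each member promoter: in footprints of both libraries (darkest), of 1 library, only outside footprints (grey), or with no match within 500 bp of a start site (white); percentages are the shares of open coding promoters with the letters in a footprint of either library. SP letters were in footprints of 8 members, RFX letters in those of none.

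By factor family, SP letters were in a footprint at 8 members, where 63.7% of open coding promoters had them. CREB letters were at 5 members (Rfx1, Sp1, Creb1, Nfyc and Rfx3), against 25.4%, and NFY letters at 5 (Nfya, Nfyb, Nfyc, Rfx1 and Sp1), against 24.8%. ETS letters were at Nfya and Gabpa, against 20.8%. NRF1 letters were in a footprint at Nfya alone, against 16.3%, and not in any window of the other 9 members, Nrf1 included. RFX letters were in no member's footprint, against 9.12%, although they stood within 500 bp of a start site at Rfx1, Nfya, Creb1, Rfx3 and Nrf1. These counts are per promoter, and members held more footprints, with medians of 11.5 and 9.5 against 5 in each library. Per footprint, letters of any family were in 33.7% at members in replicate 1, against 28.3% at open coding promoters. In replicate 2 these shares were 30.2% and 29.7%. Anywhere in the windows, 60.8% of open coding promoters held the RFX letters, 25.5% the NRF1, 89.5% the NFY, 79.5% the CREB, 64.2% the ETS and 91.3% the SP letters. Over all coding promoters, open or not, these shares were 53.5%, 15.9%, 87.7%, 63.4%, 46.0% and 68.1%.

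The printed promoters show these positions. Distances here are from the RefSeq start to the first base of the match along the gene, negative upstream. In Rfx1, CCAAT at -88 and TGACG at -24 lay wholly within footprints of both libraries, while GTTGCC at 1 lay outside them. In Sp1, GGGCGG at -81 and at -62 lay wholly within them, and ATTGG, the reverse complement of CCAAT, at -84 shared its last letters with the first of these, so the same bases count for both families. In Nfya, GCGCANGCG occurred 3 times in the printed stretch, of which the match at -243 had 8 of its 9 bases in footprints of both libraries, and the others none. Nfya had letters of 4 families in footprints of both libraries, Rfx1 of 3, and Nrf1 and Rfx7 of 0. The median of the members was 1.5, against 1 over open coding promoters.

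Outside promoters, 33 peaks shared by both libraries lay within 50 kb of the members. Such a peak of replicate 1 was more than 500 bp from any start site of any gene, and it overlapped a peak of replicate 2, which for 1 of the 33 lay within that distance. With the larger peak lists the count was 64, and the median over coding genes was then 4. The median was 3 per member, against 2 over coding genes, and 1.92 per 100 kb of searched sequence, against 1.46. Their mean signals were low beside the promoters, with a median of 0.860. Only 7 lay inside the member's gene body, and for 23 the nearest coding start was that of the member.

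**Figure D5:**
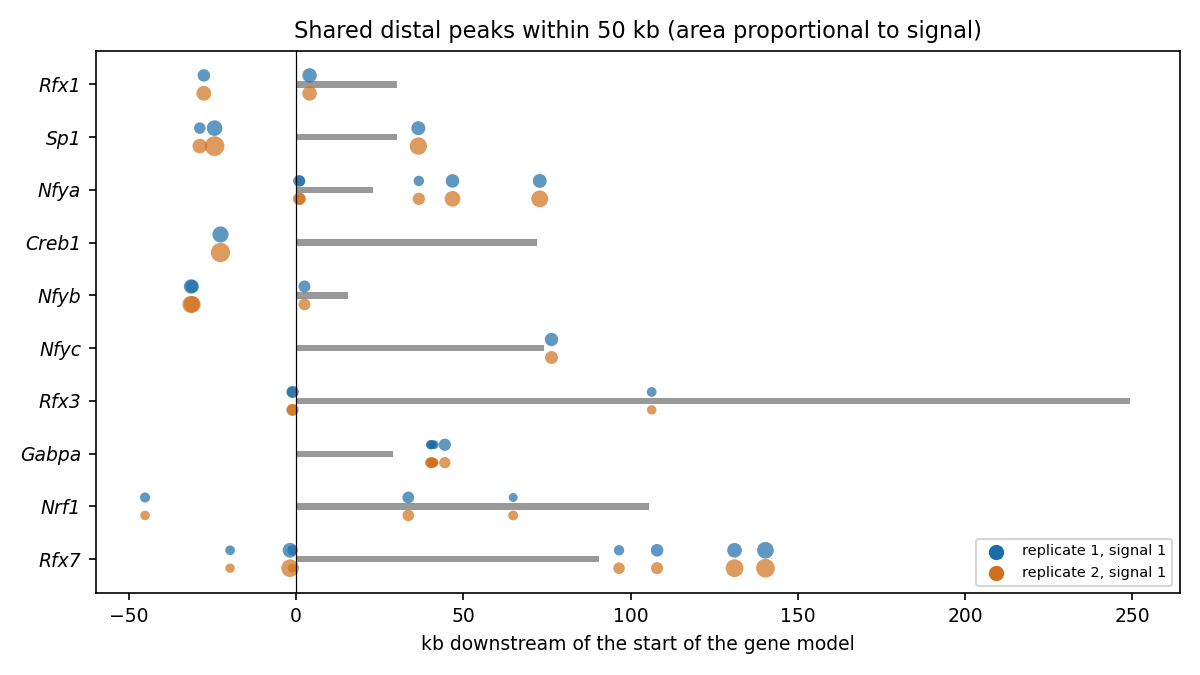
Shared distal peaks within 50 kb of each member, by distance from the start of the gene model in kb, with circle area proportional to signal in replicate 1 (upper) and replicate 2 (lower); grey bars are the gene bodies. Gabpa's peaks lie together beyond its 3′ end, and Creb1 has 1 peak, upstream.

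Rfx7 had the most, 7, of which the strongest, 140.3 kb downstream of its start, had signals of 1.60 and 2.03 and lay nearer the start of Nedd4, a ubiquitin ligase gene. Nfya and Gabpa had 5 each. Those of Gabpa formed a group 40.2 to 44.5 kb downstream, all nearest to Gabpa among coding genes, with mean signals up to 0.804. Of those of Nfya, 3 lay nearer the starts of Trem2 or Treml1, genes of the TREM receptor family. Creb1 had 1, at -22.8 kb from its start, chr1:64509773-64509960, with signals of 1.49 and 2.15, and Nfyc had 1. Sp1 had 3, none of them nearest to Sp1. Nrf1, Nfyb and Rfx3 had 3 each and Rfx1 had 2, and 2 of the Rfx3 peaks overlapped each other in the same list. Just outside the promoter limit of 500 bp in replicate 1 lay an Nfya peak with a signal of 0.809, its midpoint 0.682 kb from a start. The overlapping peak of replicate 2, with 0.910, reached inside the limit and also counted among the Nfya promoter peaks.

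Partner and family genes were described by the same rule. Of 40, 29 had a promoter peak in both libraries, beside the 55.2% of all coding genes. Of the partners of the members, both beta subunits of GABP, Gabpb1 and Gabpb2, had one, with mean signals of 1.86 ± 0.248 and 2.08 ± 0.324. All 5 CREB coactivators had one: Crebbp, Ep300, Crtc1, Crtc2 and Crtc3, from 0.744 ± 0.191 at Crtc3 to 5.38 ± 1.54 at Crtc2. So did the CREB relatives Crem and Atf1, and Rfxap and Rfxank, partners of RFX5. Of the NRF1 coactivators, Ppargc1b and Pprc1 had one and Ppargc1a did not.

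Among relatives of the members, Rfx2 and Rfx5 had a promoter peak in both libraries, and Rfx4, Rfx6 and Rfx8 did not. Sp2, Sp3, Sp4, Sp5 and Sp6 had one, although those of Sp5 (0.560 and 0.826) and Sp6 (0.560 and 0.614) were weak. Sp7 and Sp8 did not, and Sp9 had one in replicate 2 alone, with 0.993. Of the ETS genes, Ets1, Ets2, Elk1, Elk4, Elf1, Elf2, Etv1, Etv4 and Etv5 had one, and Elk3, Fli1, Erg and Spi1 did not. With the larger peak lists Rfx4 (0.671 and 0.758), Spi1 (0.457 and 0.523) and Ppargc1a (0.401 and 0.606) also had a peak in both libraries. Rfx4 was thus higher than Sp6, so the split between genes with and without a peak is not sharp at low signal. Sp2, with 8.88 and 12.4, was as high as the strongest members, and Etv5 had 7.04 and 12.2. Gabpa itself had a mean of 2.98, against a median of 2.37 over the open ETS genes of this list.

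The tissue label was checked on marker promoters, by the rule that 55.2% of all coding genes met. A peak in both libraries was present at 6 of 7 markers of cortical neurons, with Rbfox3 open in replicate 2 alone by the smaller lists. A peak in both was present at 2 of 4 of astrocytes (not Slc1a3 or Aqp4), 3 of 4 of the oligodendrocyte lineage (not Mbp), 1 of 3 of microglia (not Csf1r or Cx3cr1) and 0 of 3 of endothelium (Cldn5, Pecam1, Flt1). Of these, Slc1a3 and Mbp were open in replicate 2 alone, with 0.584 and 0.811, and Cx3cr1 in replicate 1 alone, with 0.457. These calls depend on the list used. In the larger lists Rbfox3 (0.920) and Slc1a3 (0.450) also had a peak in replicate 1, and Cx3cr1 (0.538) in replicate 2. Mbp had none in replicate 1 there, and Flt1 had weak peaks in both libraries (0.325 and 0.424). A peak in both libraries was present at none of the liver markers Alb, Apoa1 and Ttr or the muscle markers Acta1, Myh1 and Ckm. The smaller peak lists held 60071 peaks in replicate 1 and 70563 in replicate 2, and the footprint lists 212785 and 224029. These are lists of positions without read totals, so the depth of the libraries is unknown beyond the steps above.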

How the data were processed

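DNase-seq of 2 libraries (1 group) was analysed. Per the file headers and descriptions deposited with each library, the authors derived each list from the filtered mm10 alignments of 1 library, without pooling. The sources used here do not give the aligner, callers, versions or thresholds. The authors deposited 2 peak lists per library with a signal per peak; a plan for 1 list was adapted by using the smaller, with the larger as an alternative. The p-value column of the deposited footprints was 0.01 in every line, and the deposited cut-rate lists held FDR values, a kind of q-value, under 0.05.

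Genes and start sites came from GENCODE M21, without mitochondrial genes. Percentiles were taken among all 21938 protein-coding genes, with genes without a promoter peak at 0. Overlap meant at least 1 bp. Shared distal peaks are those of replicate 1 with an overlap in replicate 2. Sequences are RefSeq promoters and genome of GRCm38.p6, and all 10 members matched, with 15 promoters. Python 3.11.15, pandas 2.3.3, numpy 2.4.6 and pysam 0.24.0 were used, and overlap and motif search were tested on simulated data. For 1 planned marker of cortical neurons, values are not reported here. The members and lists were chosen with earlier results of these data known. All members are named, as are the listed partner and family genes with and without a peak, the marker genes without one, and coding genes with a start near a member's strongest peak; distal neighbours, noncoding neighbours and other single values were named after their values were seen.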

Additional observations from a re-analysis of the deposited data

How the results depend on the processing

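The members with a promoter peak in both libraries numbered 9 to 10 and the open partner and family genes 28 to 32 under every alternative run. Open member start sites numbered 43 to 55. The median percentile of member promoter signal, 90.8, was 89.8 with the signals of all promoter peaks summed and 83.3 when ranked among open coding promoters alone. Shared distal peaks, 33 within 50 kb, numbered 64 with the larger peak lists and 55 within 100 kb. Members with their own letters in a footprint, 6, numbered 3 with footprints not extended and 2 with the stricter letters CCAATCA, GTTGCCATG, TGACGTCA, CCGGAAGT and GGGGCGGGG.

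With each library alone, the counts were 10 members, 52 start sites, 98 to 106 footprints (70 shared by both), 41 to 42 distal peaks, 5 to 6 members with their own letters and 29 to 30 partner and family genes, and the median percentile was 90.4 to 91.1. No paired analysis was possible because there was 1 group. Some peaks of the smaller list overlapped each other, 855 (1.42%) in replicate 1 and 827 (1.17%) in replicate 2, and at Sp1 in replicate 2 the overlapping peaks had signals of 8.25 and 11.2. The effect of depth was not tested.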
